A study of Mus musculus with 16 samples.

Results

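The genes described here code for the proteins of cell junctions and the wider cadherin superfamily in the colon of mice with and without colitis. Members were chosen by name alone, as all genes of the deposited tables whose symbol marks a cadherin, protocadherin, desmosomal cadherin or plaque protein, claudin, tight junction scaffold, occludin family or Jam protein, connexin, catenin, nectin or Epcam. Pcdh17 was left out by the rule. This gave 36 genes of the 5171 distinct genes in the 4 tables. The tables hold genes that the authors list in at least 1 comparison, so no share of members listed anywhere has a meaning, and junction genes outside the tables, among them all nectins and Epcam, were not analysed here.

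Cells of the colon lining are held together by 3 kinds of contact besides the gap junction. Tight junctions, built from claudins and occludin, seal the space between neighbouring cells and set which ions pass. Adherens junctions and desmosomes join cells mechanically through cadherins, which are tied to actin by catenins or to keratin by plakophilins and desmoplakin, and gap junctions are channels of connexins that let small molecules pass between cells. Cadherin-related proteins of the brush border link the tips of microvilli, and protocadherins are adhesion molecules known best from neurons.

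RNA was sequenced from the whole wall of the middle part of the colon of male C57BL/6 mice in 4 groups: 3 libraries of untreated wild type mice (WT control), 3 of untreated mice with the villin promoter driven Cre deletion of Smarcad1 (KO control), 5 of WT mice with colitis and 5 of KO mice with colitis. Colitis was induced by 1% dextran sulphate sodium (DSS), a polymer that injures the colon lining, in the drinking water, and tissue was taken after 15 days. All 4 groups shared a microbiota enriched from a second facility by bedding transfer and shared air, which began 2 weeks before DSS, and controls received no DSS. Smarcad1 is a chromatin remodelling ATPase, and the comparison asks how its loss in the epithelium bears on the colon with and without colitis. Cre under the villin promoter acts in epithelium, while the RNA came from the whole wall with muscle, connective tissue, vessels, nerves and leukocytes. The floxed line came from 1 embryonic stem cell clone, and the deletion removes part of the gene. No age was given in the sources used here.

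Each gene has 4 values, the authors' mean over the libraries of each group on a log2 scale of reads scaled to the library total (RPM), without correction for gene length. Library values, which the study's supplement holds as normalised counts, were not used here, so the means carry no SD and no test was run on them. Whether a gene passed the authors' DESeq2 test at an adjusted p of 0.05 is known from its presence in the table of that comparison, and "rose", "fell" and "listed" below refer to that. A difference between WT and KO in the size of the colitis change was not tested for any gene. The geometric mean library size, recovered from the steps of the lowest means, was 10.1 M reads for WT control and 9.77 M for KO control, and with colitis 8.005 M for WT and 9.87 M for KO. No member had a group mean at or under 3 reads per library. Smarcad1 itself stood at 5.77 log2 RPM in WT control, 4.59 in KO control, 5.68 in WT colitis and 4.55 in KO colitis, lower in KO in both states. The series design text names small intestine whereas the sample labels and protocol name colon. The colon genes Car1 (11.74 log2 RPM in WT control), Slc26a3 (11.07) and Aqp8 (10.76) were high while the ileal gene Fabp6 was at 1.22, although Fabp2, a fatty acid binding protein of the small intestine, stood at 9.17.

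Most junction and cadherin genes were lower in colitis than in control. In WT 30 of the 36 were listed, 7 higher and 23 lower, beside 63.1% of all genes of the tables listed, 36.6% higher and 26.4% lower. In KO 29 were listed, 5 higher and 24 lower, beside 78.4% of all genes listed, 44.8% higher and 33.6% lower. The shares of members listed in either direction, 83.3% in WT and 80.6% in KO, are counts of genes that share reads, because 13 of the 36 are genes of the protocadherin alpha (Pcdha) cluster with common exons. Without these 13, 17 of 23 genes were listed in WT (7 higher and 10 lower) and 16 in KO (5 higher and 11 lower). The median colitis change over the 36 was −0.76 log2 (WT) and −0.86 (KO), and over the 23 it was −0.39 and −0.53, against 0.13 and 0.19 over all genes of the tables. Relative to these all-gene medians, Gja1 and Pcdh7 in KO were the 2 members whose change turned sign, and neither was listed there. All 36 members moved in the same direction in WT and KO, as did 97.5% of all genes.

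A change of at least 1 on the log2 scale, a factor of 2, was found in 16 members in WT and 14 in KO, beside 31.4% and 28.5% of all genes. Outside the Pcdha cluster these were Cdh2, Ctnna3 and Gjb5 in WT and Cdh2 and Cldn8 in KO. Changes of the other members were thus moderate, and by type the median was negative for 6 of the 9 types present in both genotypes. The 3 types with positive medians were the desmosomal cadherins, the desmosomal plaque and the connexins. Types were small, from 1 gene (desmosomal cadherins) to 5 (connexins), apart from the 15 protocadherins. The 2 catenins moved in opposite directions. Without the Pcdha genes the median of the 2 remaining protocadherins was 0.04 in WT and −0.32 in KO.

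**Figure D1:**
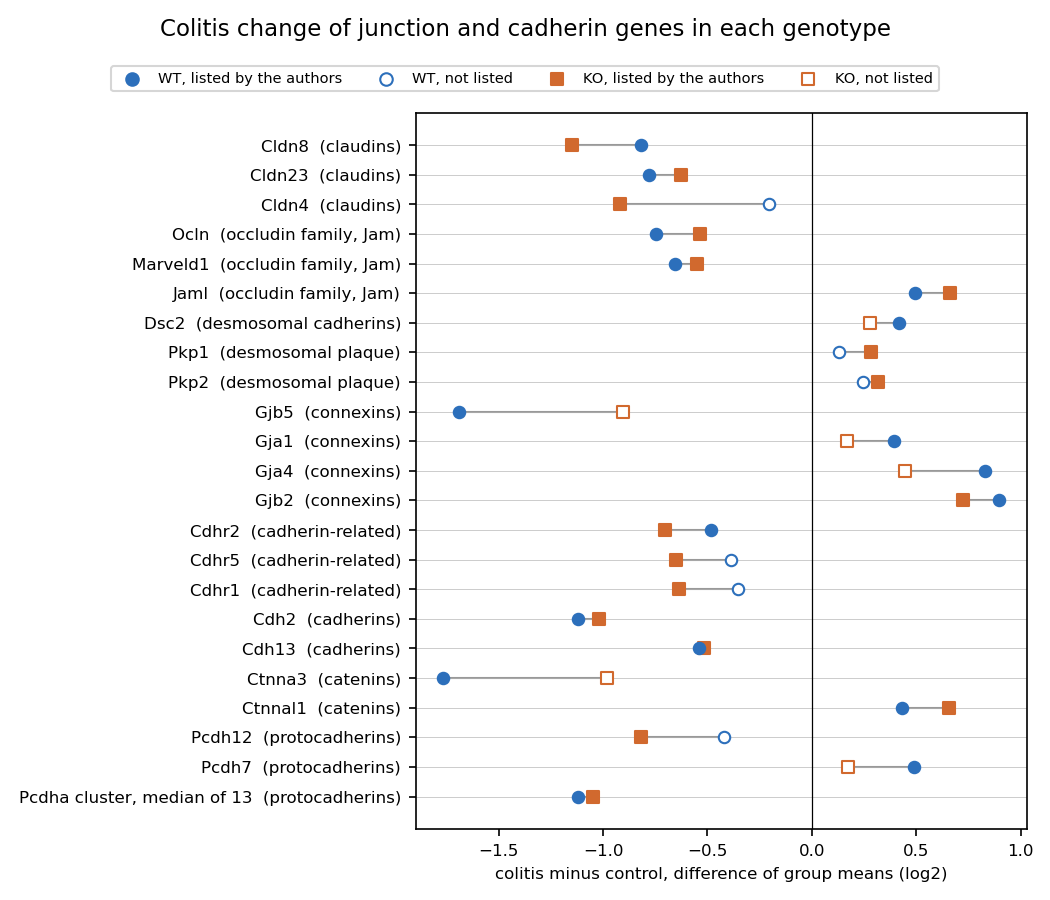
Colitis change of the genes described here outside the Pcdha cluster, and the median of the 13 Pcdha genes, as colitis minus control of the authors' group means (log2, horizontal axis). Circles are WT, squares KO, filled where the authors list the gene in that comparison (for the cluster, all 13 genes), and no spread between libraries is drawn. Claudins and cadherin-related genes lie left of 0 in both genotypes, while desmosomal genes lie right of 0, and Gjb5 (−1.69 and −0.90), Ctnna3 (−1.76 and −0.98) and Cldn4 (−0.21 and −0.92) have the longest lines between WT and KO.

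Among tight junction genes, the 3 claudins in the tables were lower in colitis in both genotypes. Cldn8, a claudin that seals against cations in the distal colon, stood at 7.73 log2 RPM in WT control, 7.99 in KO control, 6.92 in WT colitis and 6.84 in KO colitis. Falls of 0.82 in WT and 1.15 in KO brought it to 0.567 and 0.452 of the control level. Both colitis means lay below both control means. Cldn23 (chromosome 8, 35824712 to 35826559, minus strand), expressed by surface cells of the colon, had means of 7.28 in WT control, 7.17 in KO control, 6.50 in WT colitis and 6.54 in KO colitis, and fell by 0.78 and 0.63. The other one, Cldn4, is a claudin of epithelia that also binds the Clostridium perfringens enterotoxin. Its means were 7.41 in WT control and 7.60 in KO control against 7.20 in WT colitis and 6.68 in KO colitis. Cldn4 fell by 0.92 in KO, whereas the change of −0.21 in WT was not listed, and the KO colitis mean was the lowest of the 4. The KO change minus the WT change was −0.71 for Cldn4, among the 5 members with the greatest such differences. In colitis the KO mean was 0.699 of the WT mean, and the authors do not list it in that comparison.

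Per kilobase of exon, a scale on which genes can be compared, the 3 claudins were close in WT control, with 93.4 RPM per kb for Cldn4, 90.3 for Cldn8 and 83.9 for Cldn23. In KO colitis the values were 56.6, 48.6 and 50.3 in the same order. Ocln, which codes for occludin, a membrane protein of the tight junction strand, had 64.4 RPM per kb in WT control and 38.4 in WT colitis.

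On the log2 RPM scale Ocln stood at 8.09 in WT control, 8.10 in KO control, 7.34 in WT colitis and 7.57 in KO colitis. It fell by 0.74 in WT, and by 0.53 in KO. Marveld1, a relative of occludin by its membrane domain, had means of 6.88, 6.73, 6.22 and 6.18 in the same order of groups and fell by 0.66 and 0.55. For both genes the 2 colitis means were below the 2 control means, with smaller changes in KO. Jaml, a Jam-like receptor of leukocytes that binds the tight junction protein CAR, moved the other way, from 3.49 in WT control and 3.41 in KO control to 3.98 in WT colitis and 4.07 in KO colitis. Jaml rose by 0.49 in WT and 0.66 in KO. The antisense gene Gm10684 overlaps 397 bases, 12.8%, of the Jaml exons, and whether strand was used in counting is not given in the sources used here. All 9 leukocyte markers in the tables (of a list of 10) were higher in colitis, with a summed level of 318 RPM in WT control, 322 in KO control, 716 in WT colitis and 686 in KO colitis, and their part in the Jaml values was not tested.

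Colon epithelial markers had lower means in colitis, as did the claudins and occludin. The tables held 6 markers of this kind, of a list of 12. They summed to 13555 RPM in WT control, 12722 in KO control, 7541 in WT colitis and 8157 in KO colitis. All 6 were lower in colitis in both genotypes, with 5 listed in WT and 3 in KO. Between genotypes the medians of markers and claudins went different ways, and neither set was uniform. The marker median was less negative in KO (−0.59 against −0.79), and the claudin median more negative (−0.92 against −0.78). The marker Car1, named after its values were seen, had the more negative change in KO (−1.49 against −0.83, unlisted, in WT). The other markers had the less negative change in KO. This contrast was not tested. Cldn23 and Ocln had the smaller change in KO, like the marker median. Dsc2, Pkp2 and Gjb2, also genes of epithelium, had higher means in colitis in both genotypes. The part of the markers in the falls of junction genes was not tested. In whole tissue fewer cells of a type and less RNA per cell cannot be told apart. Among genes that share the claudins' place, 5 of 24 further tight junction genes were in the tables, with 1 listed higher and 2 lower in WT and 3 lower in KO. Cxadr, which codes for CAR, was at 9.02 log2 RPM in WT control and fell by 0.62 in WT and 0.59 in KO. Lsr, a protein of contacts where 3 cells meet, fell by 0.68 in WT, with −0.39 in KO not listed. Cgn, the scaffold cingulin, fell by 0.51 in KO with −0.33 in WT not listed. Igsf5, a Jam-related protein, rose by 0.40 in WT, and its KO value of 0.23 was not listed. These 4 were chosen after their values were seen.

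The 3 desmosomal genes in the tables had higher means in colitis, and none was listed in both genotypes. Their changes stand beside a median of 0.13 (WT) and 0.19 (KO) over all genes of the tables. Dsc2, a desmosomal cadherin found throughout the colon epithelium, had means of 8.64 in WT control, 8.58 in KO control, 9.06 in WT colitis and 8.86 in KO colitis. It rose by 0.42 in WT, whereas 0.28 in KO was not listed. Pkp2, a plakophilin that ties desmosomal cadherins to desmoplakin, stood at 6.87, 6.84, 7.11 and 7.16 in the same order, and Pkp1, a plakophilin known best from stratified epithelia, at 6.03, 6.24, 6.16 and 6.52. Pkp2 rose by 0.32 and Pkp1 by 0.28 in KO, while 0.25 and 0.13 in WT were not listed. Each of the 3 had its higher mean in colitis in both genotypes, and for Pkp1 the KO control mean exceeded the WT colitis mean. Per kb of exon Dsc2 was at 75.7 RPM in WT control and 100.9 in WT colitis, well above Pkp2 (21.8 and 25.8) and Pkp1 (13.0 and 14.2).

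Of 10 further desmosome and keratin genes 2 were in the tables, both with positive changes. Kazn, which codes for a desmosome associated protein, rose by 0.45 in WT, and Krt7, a keratin of simple epithelium, rose by 0.23 in KO. Both were named after their values were seen. Squamous epithelium is rich in desmosomes and lines the anal canal, while the study's methods take tissue from the middle of the colon. Of its 11 markers 2 were in the tables, Krt13 and Sprr1a. They summed to 17.1 RPM in WT control, 16.8 in KO control, 47.7 in WT colitis and 32.9 in KO colitis. These sums are mostly Sprr1a, at 4.08 log2 RPM in WT control against −2.34 for Krt13. Krt13 was under 3 reads per library in both controls. Sprr1a was listed in WT and not in KO, and Krt13 in both. The part of these markers in the desmosomal values was not tested.

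**Figure D2:**
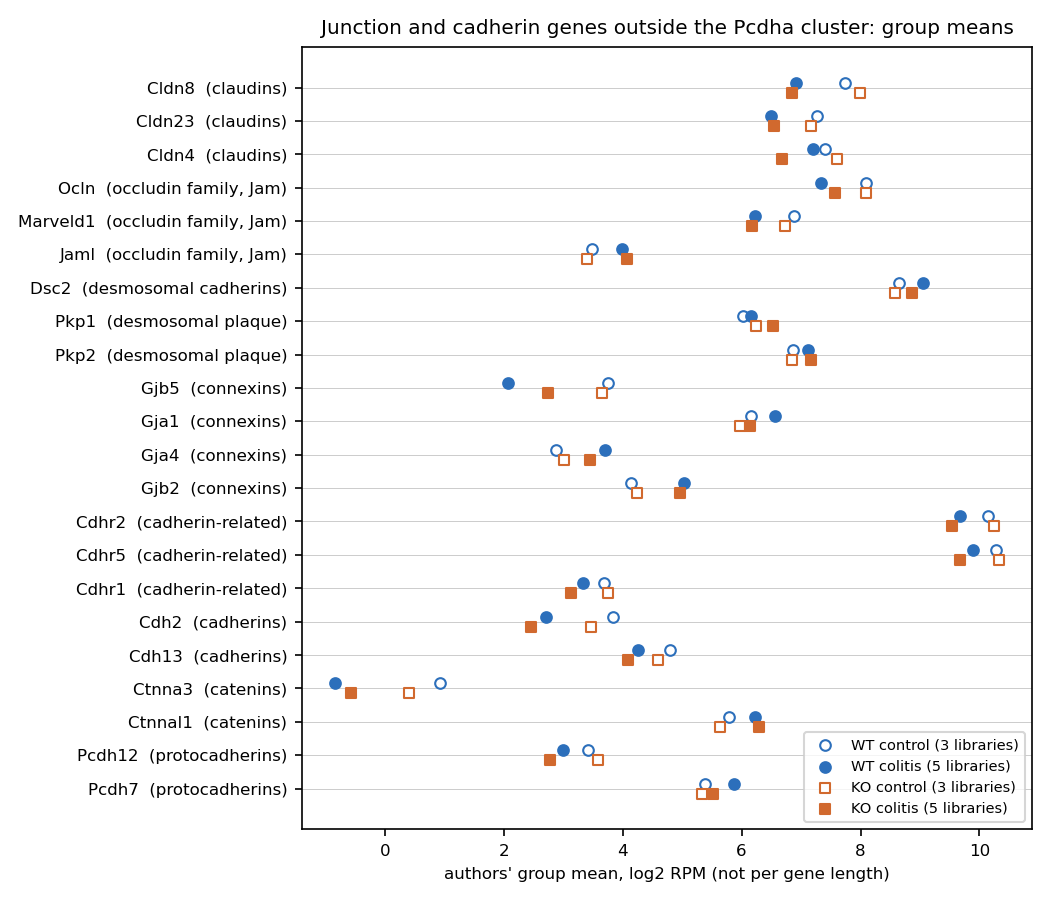
Authors' group means of the genes described here outside the Pcdha cluster (log2 RPM, not per gene length, horizontal axis). Open symbols are controls (3 libraries a group) and filled symbols colitis (5 libraries a group), circles WT and squares KO. Means run from −0.84 for Ctnna3 in WT colitis to 10.33 for Cdhr5 in KO control, and for claudins, cadherins and cadherin-related genes the filled symbols lie left of the open ones.

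The brush border genes Cdhr5 and Cdhr2 were the most abundant members per length and were lower in colitis. Cdhr5, the mucin-like protocadherin of microvillus tips, reached 452 RPM per kb in WT control, and Cdhr2, its partner in the links between microvilli, 275. On the log2 RPM scale Cdhr2 stood at 10.15 in WT control, 10.24 in KO control, 9.67 in WT colitis and 9.54 in KO colitis. It fell by 0.48 in WT and by 0.70 in KO. Cdhr5 had means of 10.28, 10.33, 9.89 and 9.68 in the same order, fell by 0.65 in KO and had an unlisted change of −0.39 in WT. For both, control means were nearly equal between genotypes and the KO colitis mean was the lowest of the 4. Cdhr1, a relative known best from photoreceptors, was far lower, with 3.68 in WT control, 3.76 in KO control, 3.33 in WT colitis and 3.12 in KO colitis, and fell by 0.63 in KO beside −0.35, unlisted, in WT. For all 3 cadherin-related genes the change was more negative in KO, by 0.22 to 0.28. Of the other 4 genes of the microvillar adhesion complex 2 were in the tables. Myo7b, the myosin of the tip link complex, fell by 0.56 in KO with −0.39 unlisted in WT, and the scaffold gene Anks4b rose by 0.22 in KO with −0.03 in WT, both named after their values were seen.

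The promoters of Cdhr2 and Cdhr5 are shown because these partners both fell in KO, with Cdhr5 unlisted in WT. They are the 250 bases before the gene start in RefSeq (GRCm38.p6), at chr13:54701213-54701462 on the plus strand and chr7:141276787-141277036 on the minus strand. They were searched on both strands for an HNF4 motif (CAAAGNNCA, found in 5.49% of 32851 promoters of this length), a CDX motif (TTTATG, 10.8%), an AP-1 motif (TGANTCA, 6.75%) and the GC box (GGGCGG, 32.7%). HNF4 and CDX factors are regulators of intestinal genes. Both are printed on the strand of the gene. Capitals mark the matches, of which there was 1, a CDX motif on the opposite strand in Cdhr5, and none in Cdhr2.
Cdhr2: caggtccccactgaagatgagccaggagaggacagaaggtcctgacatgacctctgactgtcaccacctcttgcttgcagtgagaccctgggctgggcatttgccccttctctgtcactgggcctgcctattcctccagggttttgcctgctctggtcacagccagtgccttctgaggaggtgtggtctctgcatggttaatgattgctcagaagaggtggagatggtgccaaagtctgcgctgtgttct
Cdhr5: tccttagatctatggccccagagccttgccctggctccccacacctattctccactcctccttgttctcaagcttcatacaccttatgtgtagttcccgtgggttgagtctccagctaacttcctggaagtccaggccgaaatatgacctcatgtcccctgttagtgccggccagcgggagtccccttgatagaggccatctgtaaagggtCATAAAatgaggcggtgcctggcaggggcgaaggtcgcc
A match describes letters of this window only and is not a binding site.

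Connexins changed in both directions, as did catenins, protocadherins and the occludin and Jam type. Among catenins and the occludin and Jam type, the genes with higher means in colitis were Ctnnal1 and Jaml. Both were taken in by name and were left out of a narrower membership as not junction proteins. Gjb2, which codes for connexin 26 of epithelia, had means of 4.14 log2 RPM in WT control, 4.24 in KO control, 5.03 in WT colitis and 4.97 in KO colitis. Its rises of 0.90 (WT) and 0.73 (KO), 1.86-fold and 1.65-fold, made it the 1 connexin listed in both genotypes. Gja4, connexin 37 of arterial endothelium, was at 2.87 in WT control, 3.00 in KO control, 3.70 in WT colitis and 3.45 in KO colitis, and rose by 0.83 in WT with 0.45 unlisted in KO. The endothelial list could hardly be checked, as 2 of its 8 markers were in the tables, with sums of 57.3 RPM in WT control, 54.6 in KO control, 67.8 in WT colitis and 54.5 in KO colitis. Tek was lower and Egfl7 higher in colitis in both genotypes.

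Gjb5, a beta connexin known from skin and other epithelia, was lower in colitis. It stood at 3.75 in WT control, 3.65 in KO control, 2.06 in WT colitis and 2.75 in KO colitis. It fell by 1.69 in WT, to 0.310 of control, while −0.90 in KO was not listed. The KO minus WT difference of its colitis change was 0.78. Its lowest mean was in WT colitis, and the 2 colitis means lay below the 2 control means. Per kb of exon Gjb5 was at 7.83 RPM in WT control, near Gjb2 at 7.31 and Gja1 at 6.97, with Gja4 at 4.35.

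**Figure D3:**
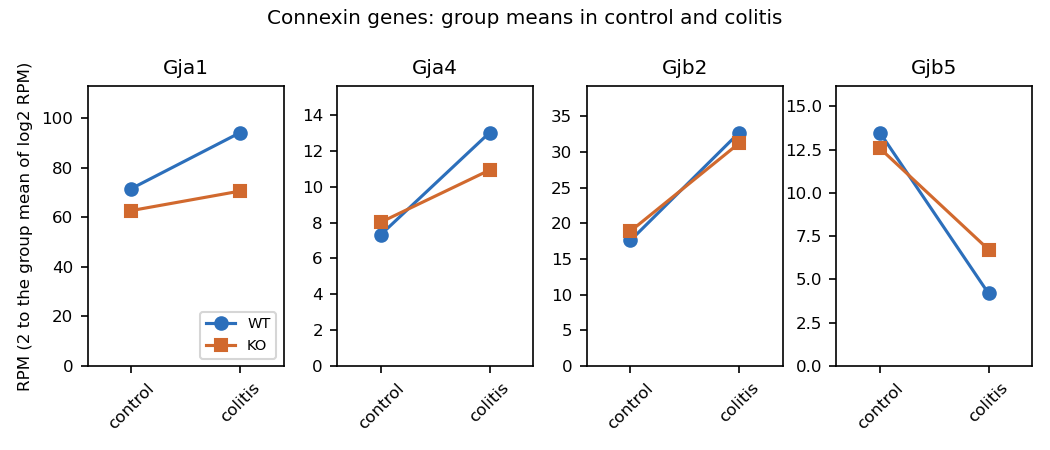
Group means of the 4 connexin genes described here, in control and colitis on a linear scale from 0 (2 to the power of the authors' log2 mean, RPM, with an axis of its own for each gene), circles for WT and squares for KO. No spread between libraries is drawn. Lines of Gja1, Gja4 and Gjb2 go up and that of Gjb5 goes down in both genotypes, and for Gja1 the KO line stays lower, at 6.14 against 6.56 log2 RPM in colitis.

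Promoters of Gjb2 and Gjb5 are given because these epithelial connexins moved in opposite directions. They were taken and searched as above, at chr14:57104703-57104952 and chr4:127358165-127358414, both on the minus strand. Gjb2 held 2 matches to the GC box, in capitals, and Gjb5 held no match to any of the 4 motifs. The RefSeq start of Gjb5 lies inside the gene as the deposited tables bound it, so that this window overlaps the end of the deposited span.
Gjb2: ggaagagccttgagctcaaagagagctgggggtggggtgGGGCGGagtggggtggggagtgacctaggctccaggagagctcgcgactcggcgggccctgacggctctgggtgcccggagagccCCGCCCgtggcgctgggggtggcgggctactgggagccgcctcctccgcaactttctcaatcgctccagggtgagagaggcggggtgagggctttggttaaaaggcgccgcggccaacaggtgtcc
Gjb5: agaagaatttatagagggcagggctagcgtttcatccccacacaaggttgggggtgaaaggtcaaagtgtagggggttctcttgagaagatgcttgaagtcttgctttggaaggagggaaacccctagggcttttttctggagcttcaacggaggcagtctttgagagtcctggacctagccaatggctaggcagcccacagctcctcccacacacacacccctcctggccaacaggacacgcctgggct

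Gja1 was the 1 member that the authors list between genotypes. It codes for connexin 43, the gap junction protein of smooth muscle, fibroblasts and many other cells, with its gene on the plus strand of chromosome 10 between 56377330 and 56402513. Its means were 6.16 in WT control, 5.97 in KO control, 6.56 in WT colitis and 6.14 in KO colitis. In colitis Gja1 was lower in KO by −0.42, or 0.749 of WT, in a comparison in which 1.08% of all genes of the tables were listed. In control 0 members were listed between genotypes, where the authors' table holds 0.89% of all genes, and the Gja1 difference was −0.19. Gja1 rose by 0.40 in WT colitis, and its change of 0.17 in KO was not listed, so the KO colitis mean was close to the WT control mean. Fibroblast markers, 6 in the tables of 8, summed to 2610.4 RPM in WT control, 2535 in KO control, 5016 in WT colitis and 3724 in KO colitis. None of the 6 was listed between genotypes in colitis, where each had a lower mean in KO than in WT. These differences ran from −0.18 for Dcn to −0.63 for Col1a1, both named after their values were seen. Col3a1, named after its values were seen, had the highest mean of the 6 in each group. Smooth muscle markers, 4 in the tables of 9, summed to 4201, 3872, 2709 and 2686 RPM in the same order, all 4 lower in colitis. The part of either in the Gja1 values was not tested.

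Panx1, a channel protein distantly like connexins, was the 1 of 3 pannexin genes in the tables. It stood at 5.66 in WT control and 6.11 in WT colitis, rose by 0.45 in WT, and changed by 0.11, unlisted, in KO. It was named after its values were seen.

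The cadherins and alpha catenin relatives in the tables included genes known from cells other than the surface epithelium. Cdh2, N-cadherin of neurons, glia and mesenchyme, had means of 3.84 in WT control, 3.47 in KO control, 2.72 in WT colitis and 2.45 in KO colitis. The changes of −1.12 in WT and −1.02 in KO were falls to 0.460 and 0.493 of control. Cdh13, a cadherin without a cytoplasmic tail that is found on smooth muscle and endothelium, was at 4.80, 4.60, 4.26 and 4.08 in the same order and fell by 0.54 and 0.51. For both, colitis means lay below control means and KO means below WT means in either state, with nearly equal changes in the genotypes.

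Ctnna3, the alpha catenin of heart and other muscle, was the scarcest member. Its means were 0.93 in WT control, 0.41 in KO control, −0.84 in WT colitis and −0.57 in KO colitis, which is 19.2, 13.0, 4.48 and 6.64 reads per library. It fell by 1.76 in WT, the most negative change of all members in that genotype, whereas −0.98 in KO was not listed. The KO minus WT difference of 0.79 was the greatest of the 36 and rests on colitis means of fewer than 7 reads. Ctnnal1, catulin, a relative of alpha catenin, moved the other way. It stood at 5.79 in WT control, 5.64 in KO control, 6.22 in WT colitis and 6.30 in KO colitis and rose by 0.43 and 0.66. Of 15 further adherens junction genes 3 were in the tables, and 2 were listed lower in each genotype. Pdlim1, an actin and actinin binding protein, fell by 0.60 (WT) and 0.59 (KO). It was named after its values were seen.

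The protocadherins outside the alpha cluster moved apart. Pcdh12, VE-cadherin-2 of endothelium, stood at 3.41 in WT control, 3.59 in KO control, 2.99 in WT colitis and 2.77 in KO colitis, and fell by 0.82 in KO beside −0.42, unlisted, in WT. Its change was more negative in KO by 0.40, which was not tested. Pcdh7, a non-clustered protocadherin named after its values were seen, had means of 5.39, 5.34, 5.87 and 5.51 and rose by 0.49 in WT, with 0.17 unlisted in KO. The antisense gene 4932441J04Rik overlaps 2235 bases, 21.1%, of its exons.

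The protocadherin alpha genes were lower in colitis as a block. Each of the 13 has its own first exon, and the cluster occupies chromosome 18, plus strand, between 36930184 and 37187661. All 13 share 2860 exon bases in 3 blocks, 48.6% to 54.9% of the exon length of each, so a read over the common exons can count for every one of them, and they are 1 signal rather than 13. Their means ran from 2.78 to 3.16 log2 RPM in WT control, from 2.49 to 2.95 in KO control, from 1.67 to 2.11 in WT colitis and from 1.46 to 1.76 in KO colitis. Each colitis range lay below both control ranges. Pcdhac2, a C-type member at the end of the row, gave the upper end in all 4 groups, and without it the upper ends were 2.87, 2.62, 1.74 and 1.58. At the median of the 13 the level was 71.0 reads per library in WT control, 56.8 in KO control, 26.1 in WT colitis and 27.7 in KO colitis. All 13 fell in both genotypes. Changes ran from −1.16 to −1.06 in WT, with a median of −1.12, and from −1.19 to −0.97 in KO, with a median of −1.05. In KO the means were lower than in WT in both states, by a median of −0.28 in control and −0.22 in colitis, and none of the 13 was listed between genotypes.

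**Figure D4:**
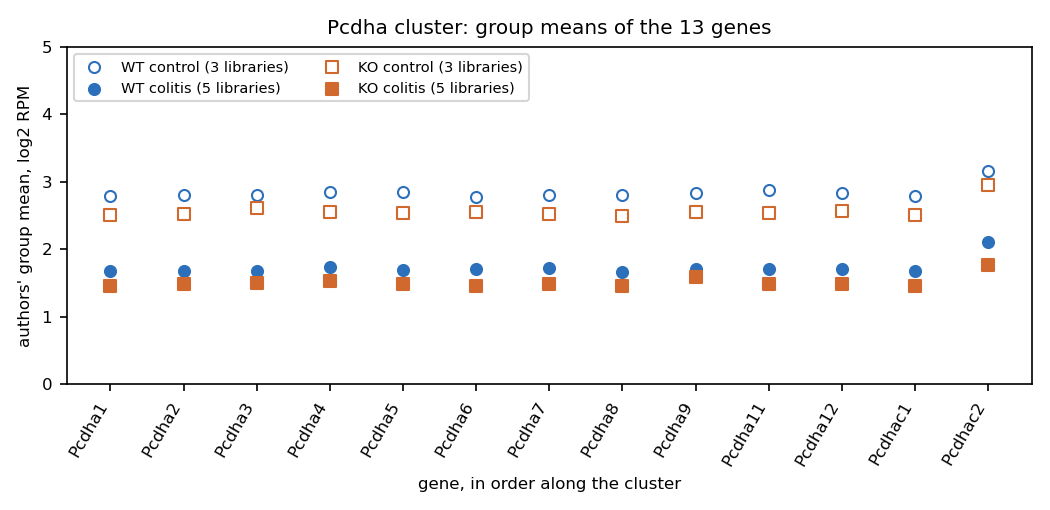
Authors' group means of the 13 Pcdha genes in order along the cluster (log2 RPM, vertical axis), open symbols for controls and filled for colitis, circles for WT and squares for KO. The 4 groups form nearly flat rows, from 2.78 to 2.87 for 12 genes in WT control down to 1.46 to 1.58 in KO colitis, with Pcdhac2 above the row in each group.

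Protocadherin alpha proteins and Cdh2 are known from neurons, and markers of enteric glia and neurons moved in the same direction. Of 11 such markers 7 were in the tables, all 7 lower in colitis in both genotypes, with 6 listed in each. Their sum was 213 RPM in WT control, 187 in KO control, 124 in WT colitis and 91.4 in KO colitis, with a median change of −0.96 (WT) and −1.10 (KO). Nos1, the neuronal nitric oxide synthase, chosen after its values were seen, had means of 5.78 in WT control, 5.57 in KO control, 4.73 in WT colitis and 4.09 in KO colitis. Ret, of these 7, was listed between genotypes in colitis, with KO minus WT at −0.66, beside 1.08% of all genes of the tables. Chat went the other way in colitis (0.41, unlisted), and the remaining markers were lower in KO, unlisted. Ret and Chat were named after their values were seen. The part of this list in the Pcdha and Cdh2 values was not tested.

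Members were also split by lists of the cells held to use them in gut, and 17 that are in neither list stayed out. Cdhr1, known best from photoreceptors, was on the epithelial list. The 11 epithelial members had a median colitis change of −0.39 (WT) and −0.63 (KO), and the 8 non-epithelial members −0.01 and −0.17. In WT 2 epithelial members were listed higher and 5 lower, and in KO 2 and 7, in all 63.6% and 81.8%, near the 63.1% and 78.4% of all genes. Of the 8 non-epithelial members 4 were listed higher and 3 lower in WT, and 1 and 3 in KO. The difference between the lists was smaller when means were used in place of medians, −0.05 in WT and −0.14 in KO, so the split describes the median gene and was not tested.

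Across genotypes, 23 members were listed in both colitis comparisons, 63.9%, and 10 of the 23 outside the Pcdha cluster, 43.5%, beside 42.2% of all genes of the tables. The 7 listed in WT alone (19.4% of members, beside 20.9% of all genes) included Ctnna3, Dsc2, Gja1, Gja4, Gjb5 and Pcdh7, and the 6 listed in KO alone (16.7%, beside 36.2%) were Cdhr1, Cdhr5, Cldn4, Pcdh12, Pkp1 and Pkp2. Being listed in 1 genotype does not show that the response differed. The absolute change was smaller in KO for 13 of the 23 genes outside the cluster, 56.5%, beside 50.6% of all genes of the tables. Gja1, Gja4, Gjb2 and Gjb5 had the smaller change in KO, and of the 3 cadherin-related genes 3 had the greater, as values without a test. The median KO minus WT difference of the 36 was −0.15 in control and −0.20 in colitis, and of the 23 it was −0.05 and −0.08.

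Partners of the junctions outside the name rule also had a negative median colitis change. Of a list of 70, 17 were in the tables, with a median colitis change of −0.33 in WT and −0.46 in KO. In WT 4 were listed higher and 5 lower, beside 36.6% and 26.4% of all genes of the tables. In KO the counts were 2 and 9, beside 44.8% and 33.6%. None changed by 1 or more on the log2 scale, beside 31.4% (WT) and 28.5% (KO) of all genes. Of the 17 partners, 4 contract the actin ring beneath the junction, with 1 listed higher and 1 lower in WT and 3 lower in KO. Mylk, the myosin light chain kinase that smooth muscle also uses, fell by 0.62 in WT and 0.54 in KO. The light chain gene Myl12a rose by 0.24 in WT, with 0.17 unlisted in KO. Myl9 fell by 0.57 in KO, with −0.71 unlisted in WT, and Myh14 fell by 0.56 in KO, with −0.29 unlisted in WT. These 4 were named after their values were seen. The smooth muscle markers given with Gja1 were lower in colitis too, and their part was not tested.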

How the data were processed

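RNA of whole tissue from the middle of the colon of 16 mice was sequenced as 100 bp reads, single-end per the labels and paired-end in the study's methods. Per the study's methods and the submitters' processing notes, the authors mapped reads to GRCm38 with HISAT2 2.1.0, kept unique hits, removed reads over ribosomal RNA, counted reads over exons of merged transcripts in SeqMonk and ran DESeq2. Each of the 4 deposited tables holds the genes the authors called in 1 comparison at an adjusted p-value of 0.05, with 4 group means as log2 values of reads scaled to the library total (RPM), which the authors had not corrected for gene length. Counts of 0 entered the logarithm as 0.9 read. The column of the authors' adjusted p-values was not used beyond membership of a table. No p-value was computed here, since the deposited tables give group means and the counts by sample in the study's supplement were not used.

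Samples were grouped by the labels. Changes are differences of the deposited log2 means, summarised by medians, with Python 3.11.15, numpy 2.4.6 and pandas 2.3.3. Depth was recovered from the steps of low means and checked on simulated data, and 3 reads per library was the floor, which covers counting error only. Exon lengths and overlaps came from GENCODE M21, in which all 36 members matched by symbol and 35 by identical coordinates (Pcdha11 has more than 1 entry). RefSeq promoters were matched for 14 of the 36.

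Members and gene lists were chosen with earlier results of these data known. Genes were named where listed between genotypes, among the 3 greatest changes of their type in either genotype, changed by at least 1 on the log2 scale, or among the 5 greatest differences between genotypes, which took in 34 of 36. A member is counted in the totals but not reported here. Others named are marked in the text as chosen after their values were seen. Alternatives were the mean, the floor, centring on all genes, and narrower membership.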

Additional observations from a re-analysis of the deposited data

How the results depend on the processing

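Of 107 alternatives over 27 medians and counts, 92 stayed within 0.2 on the log2 scale, or a factor of 1.5 for counts, of the reported value with the same sign, 12 moved further and 3 turned sign. The median change of members in WT, −0.76, became −0.39 without the Pcdha genes, −0.40 with these taken as 1 gene, −1.07 over listed members and −1.12 over members changed by at least 1. In KO, −0.86 became −0.56 as a mean, −0.53 without the Pcdha genes and −0.54 with these as 1 gene. Taking the Pcdha genes as 1 gene, 5 of the alternatives, was chosen after seeing the data. The epithelial minus non-epithelial difference in WT, −0.38, was −0.0495 between means and −0.98 over listed members, and in KO, −0.46, it was −0.14 and turned to 0.0307 respectively. The connexin median in WT, 0.40, was −0.0312 as a mean, and in KO, 0.17, it was −0.0204 when centred on the median of all genes. The causes were not tested. The floor of 3 reads moved no value, as no member was at or under it. No paired analysis was possible because the deposited tables analysed here hold group means, and leaving out each replicate was not run for the same reason. Counts by sample in the study's supplement were not used here. Depth limits Ctnna3 most, with 4.48 reads per library in WT colitis.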
